A study of Mus musculus with 13 samples.

Results

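The clustered protocadherins are a family of cadherin-like adhesion proteins encoded side by side in 3 gene clusters, alpha, beta and gamma. The genes described here were the 58 members of this family, 14 alpha, 22 beta and 22 gamma, among the 37785 genes of the count tables. They were chosen by their GENCODE M21 symbol. No measured value entered that choice, but the family was proposed with earlier results of these libraries known, so the calls below describe these samples. The cells were oligodendrocyte precursor cells (OPCs), the progenitors of the myelin-forming glia, enriched from the brains of wild-type C57BL/6 mice with magnetic beads against PDGFRα, and their total RNA was sequenced in bulk. The ages were E16 (embryonic day 16, 3 samples), P12 (postnatal day 12, 2 samples after merging), P80 (postnatal days 80 and 81, 3 samples) and P310 (within a few days of postnatal day 310 in the age labels, 4 samples). None of the groups carried an engineered allele or received an agent in the labels. The P80 and P310 preparations included a myelin removal step that the E16 and P12 preparations did not, so that this step and an age over P12 cannot be told apart.

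In an alpha or gamma gene, one large variable exon encodes the extracellular and transmembrane part of the protein and is spliced to small constant exons at the end of the cluster, which encode a cytoplasmic tail common to all members of that cluster. Beta genes have a single exon and no common tail. In neurons, most alpha, beta, gamma A and gamma B genes are switched on in varied combinations in single cells, while the C-type genes (Pcdhac1, Pcdhac2, Pcdhgc3, Pcdhgc4 and Pcdhgc5) are more uniformly used. The proteins bind copies of themselves on neighbouring cells, and the mix of isoforms serves neurite self-avoidance, neuronal survival and the spacing of processes.

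The clusters lie in the order alpha, beta, gamma on the plus strand of chromosome 18 (GRCm38), at 36930184 to 37187661, 37264938 to 37524479 and 37661793 to 37841873. Each alpha gene had 2860 to 2864 exonic bases in common with other members and 2346 to 4675 of its own, per the annotation. Gamma genes had 375 to 3157 common bases and 1570 to 5508 of their own. The authors counted a read for every gene it overlaps, so a read in the constant exons entered the count of all 14 alpha genes, or of 21 gamma genes, at once. The exception was Pcdhgb8, whose annotated constant exon is truncated to 375 common bases and whose counts were the lowest of the gamma cluster in every sample. The alpha values, and likewise the gamma values, are therefore mostly repeats of 1 measurement. The lowest member of a cluster in a sample, for gamma the lowest of the 21 genes without Pcdhgb8, is an upper bound on the reads in the shared exons. What a member holds above it is called its own reads here. These are an estimate: they are 0 for the lowest member whatever it truly holds, they understate the others, and they include antisense reads and reads in exons common to a pair of members. The same count is taken off all members of a cluster in a sample, so their own reads are not independent of one another. The lowest gamma gene was at 96.6 to 98.8% of the median gamma gene at E16 and P12, so its own unseen reads weigh on these small remainders. Gm26672 overlaps Pcdhga10, Pcdhgb7, Pcdhga11 and Pcdhga12 in antisense, Gm37165 overlaps Pcdhga7 and Pcdhga8, and Pcdhgb1 and Pcdhga4, like Pcdhgb4 and Pcdhga8, have exonic bases in common. In the alpha cluster, antisense genes overlap the Pcdha11 gene ENSMUSG00000102206 by 3338 bases, Pcdha12 by 531, Pcdha6 by 399 and Pcdha4 by 393. Beta genes share no exon, apart from Pcdhb21 and Pcdhb22, which overlap by 455 bases.

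The 13 libraries held 8669521 to 25810455 gene counts. P12 replicates 2 and 3 differed by a chi-square of 2.355 per degree of freedom, against 17.92 to 185.2 in the other 14 pairs of the same age, and were summed and counted as 1 sample. The titles number the mice, and p-values measure the spread between these samples. The labelled cell type had its markers: the summed level of 10 OPC genes, including Pdgfra, Cspg4 and Olig2, was 370 to 438 CPM (counts brought to one library size, with TMM scaling) at E16, 708 and 1011 CPM at P12, 349 to 492 CPM at P80 and 219 to 385 CPM at P310, with no gene of the list at 0 throughout an age. Genes of other cell types were detected too, and most of their sums were higher in all later samples than at E16. Summed endothelial markers (8 genes) held 4849 to 9131 CPM in all later samples and 45.8 to 73.3 CPM at E16. Astrocyte sums (8 genes) were 601 to 3140 CPM in later samples and 289 to 349 CPM at E16, and microglia sums (6 genes) 225 to 908.5 CPM in later samples and 61.4 to 90.01 CPM at E16. Mural cell sums (6 genes) were 625 to 1169 CPM in later samples and 113 to 183 CPM at E16, and sums of ependyma and choroid plexus (6 genes) 585 to 6258 CPM in later samples and 95.3 to 163 CPM at E16. The part of these cells in the results below was not tested. Summed markers of mature oligodendrocytes (8 genes) reached 7902 CPM in P12 replicate 1 and 66920 CPM in P310 replicate 2, against 58.5 to 743 CPM in the other samples.

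**Figure D1:**
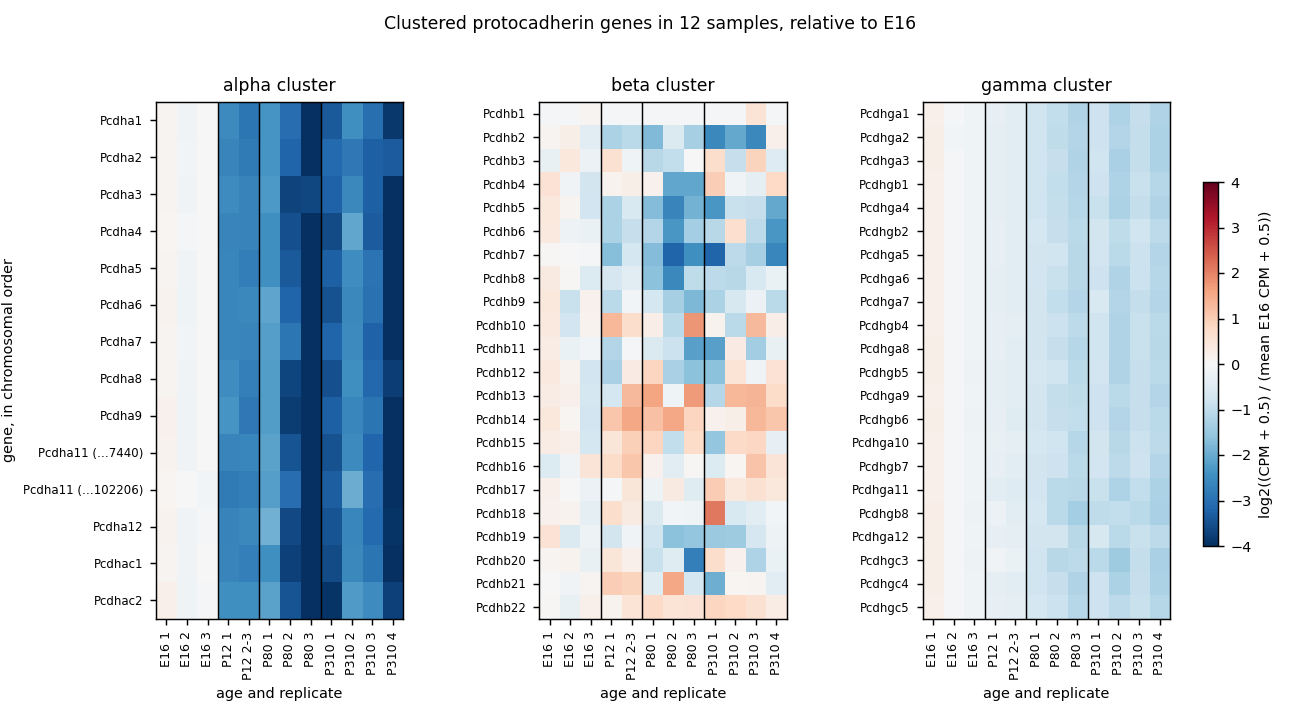
Level of each clustered protocadherin gene (rows, in chromosomal order) in each of 12 samples (columns, age and replicate) as log2 of CPM plus 0.5 relative to the mean of E16, with the colour scale ending at 4 in either direction. The alpha block is below E16 in every later sample, the gamma block is mildly below it, and the beta rows differ from one another.

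After the low-count filter, 57 members were among the 21170 genes tested, with Pcdhb1 left out at 0 in 10 of 12 samples. Over the 4 ages together, edgeR's quasi-likelihood F test called all 14 alpha and all 22 gamma genes and no beta gene at an adjusted p under 0.05, where 37.1% of all genes tested were called. With own reads in place of whole counts 6 gamma genes with an estimate of own reads were called (Pcdhgb2, Pcdhga5, Pcdhga8, Pcdhgb5, Pcdhga11 and Pcdhgc3), and no alpha gene was called.

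Against E16, the alpha cluster had the largest median difference of the 3 clusters at both P12 and P80. Relative to E16, all 14 fell at P12, by a median log2 change of -2.75 (-2.93 to -2.53), with adjusted p of 0.00218 to 0.0282 (edgeR). All 14 were also lower at P80 than at E16, by a median of -3.28 (-3.62 to -3.03), with adjusted p of 0.00015 to 0.00287. In the background, 10.5% of all genes tested were called lower and 16.7% higher at P12 than at E16, with a median log2 change of 0.09 over all genes. At P80 the shares against E16 were 19.2% lower and 21.5% higher, with a median of 0.12. Fewer cells of a type and less RNA per cell cannot be told apart in bulk samples.

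The lowest alpha gene held 33.0, 27.6 and 30.5 CPM in the 3 E16 samples, 4.73 and 3.69 CPM at P12, 5.45, 1.98 and 0.348 CPM at P80, and 2.24, 4.07, 2.76 and 1.36 CPM at P310. No later sample reached the E16 range. In reads, this was 458 to 518 at E16, 76 and 174 at P12, 5 to 86 at P80 and 16 to 37 at P310, so the adult values rest on few reads. P80 replicate 3, with 5 reads, lay far under the other P80 samples.

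**Figure D2:**
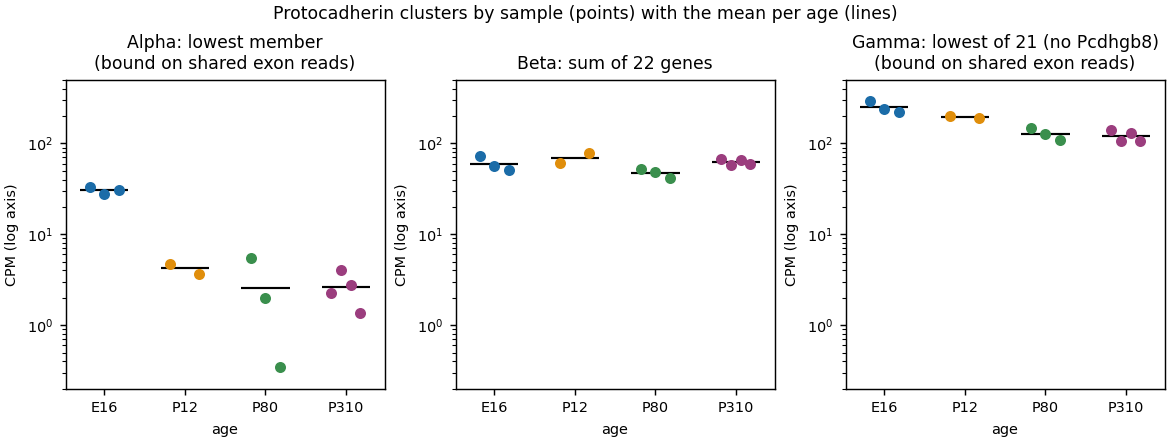
CPM on a log axis for the lowest alpha gene, the sum of the 22 beta genes and the lowest gamma gene (Pcdhgb8 left out) in each sample (points), with the mean per age (lines). Alpha averages 4.21 CPM at P12 and 30.4 CPM at E16, while the beta sums stay between 42.1 and 78.3 CPM in all 12 samples.

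Pcdhac2, the C-type gene next to the alpha constant exons (ENSMUSG00000102697, chromosome 18, 37143503 to 37187657), had the most own reads of the alpha genes at each age when samples were pooled. At P80 this rested on replicate 1, and at P310 Pcdhac2 ranked first in replicate 3 alone. It held 47.9, 36.7 and 39.6 CPM at E16, 7.22 and 7.10 CPM at P12, 8.996, 3.33 and 1.11 CPM at P80, and 2.24, 8.25, 6.86 and 2.63 CPM at P310. The E16 samples lay above all others. Its log2 change was -2.53 ± 0.74 (SE) for P12 against E16 (adjusted p = 0.0201) and -3.19 ± 0.66 for P80 against E16 (adjusted p = 0.00139, edgeR).

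The own reads of Pcdhac2, which cannot come from the shared exons, averaged 2.95 ± 0.65 CPM at P12 (SD, n = 2) and 11.0 ± 3.4 CPM at E16 (n = 3). They were 1.89 ± 1.47 CPM at P80 (n = 3) and 2.39 ± 2.09 CPM at P310 (n = 4). The P310 mean includes a 0 set by the subtraction in replicate 1, where Pcdhac2 was tied for the lowest alpha gene. On own reads its log2 change was -1.89 ± 1.07 at P12 (adjusted p = 0.212) and -2.53 ± 0.95 at P80 (adjusted p = 0.047), both against E16. It took 25.9% of the alpha own reads at E16, 25.2% at P12, 16.8% at P80 and 22.4% at P310, pooled over samples.

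Pcdhac1, the other alpha C-type gene, held 5.45, 1.98 and 0.348 CPM at P80, against 34.6, 29.4 and 32.6 CPM at E16 (log2 change -3.62 ± 0.71, adjusted p = 0.000967). It was itself the lowest alpha gene, alone or tied, in all 3 P80 samples, so its own reads are 0 there by construction and give no estimate of a change.

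Pcdha2 and Pcdha3, which had the smallest adjusted p of the alpha cluster, behaved like their neighbours on whole counts. Pcdha2 held 4.79 and 4.18 CPM at P12, against 35.0, 30.2 and 32.1 CPM at E16 (log2 change -2.85 ± 0.59, adjusted p = 0.00218). Pcdha3 held 5.04 and 4.54 CPM at P12, against 34.0, 28.2 and 32.1 CPM at E16 (-2.71 ± 0.60, adjusted p = 0.00339). Their own reads were at or under 2.53 CPM in every sample, so these values mostly repeat the shared exons. On own reads, all 13 alpha genes tested were below 0 at P12 and at P80 against E16, with medians of -1.89 and -1.81. They share the subtracted count, so they are not 13 separate results. Of the 13, none was called at P12 (edgeR). At P80 Pcdhac2 was called lower, and the call of Pcdhac1 rests on the 0 that the subtraction sets. Gm10545, antisense to Pcdha12 and to the Pcdha11 gene ENSMUSG00000102206, held 6.55, 10.6 and 4.36 CPM at E16, and 0.0622 and 2.35 CPM at P12. The part of Gm10545 in the own reads of these genes was not tested.

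The calls at P12 depended on single samples. With P12 replicate 1 or P12 replicate 2-3 left out, Pcdha2 and Pcdha3 were the 2 alpha genes called lower against E16, in fits that assume the lone P12 sample to vary like the other ages. Without E16 replicate 1 there were 9. Against E16, all 14 alpha genes remained lower at P80 with any 1 of the 12 samples left out.

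Genes of neurons moved in the same direction. The summed level of 17 immature neuron genes, such as Dcx and Neurod6, was 7258 to 8680 CPM at E16, 332 and 395 CPM at P12, 143 to 206 CPM at P80 and 173 to 391 CPM at P310, and Nhlh1 was at 0 in all P80 samples. Of the 17, 15 were called lower at P12 and 16 at P80, both against E16. Of 14 mature neuron genes, 3 were called lower at P12 and 5 at P80. Over all genes, 10.5% were called lower at P12 and 19.2% at P80. Summed genes of mature neurons (14) were 474 to 518 CPM at E16, 56.9 and 394 CPM at P12, 90.1 to 327 CPM at P80 and 73.1 to 789 CPM at P310. Within P80 and within P310, the sample lowest in mature neuron genes (P80 replicate 3 and P310 replicate 4) was also the one with the lowest alpha value. At P12 the order was the opposite, since replicate 1 was lower in mature neuron genes and higher in alpha. The part of neurons in the alpha difference was not tested.

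Against E16, the gamma genes had a smaller median difference than the alpha genes, and passed the test at P80. Without Pcdhgb8, the lowest gamma gene held 294, 240 and 223 CPM at E16, 202 and 189 CPM at P12, 146, 126 and 109 CPM at P80, and 142, 107, 131 and 107 CPM at P310. The ages were in order down to P80, with no overlap between E16, P12 and P80, and P310 overlapped P80. Against E16, none of 22 gamma genes was called at P12 (edgeR, 1 at an unadjusted p under 0.05 and 0 with DESeq2), where all 22 were below 0 with a median of -0.39 and adjusted p of 0.126 to 0.535. At P80 all 22 were called lower than at E16, by a median of -0.92 (-1.03 to -0.85), with adjusted p of 0.00082 to 0.00272.

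The ratio of the lowest gamma to the lowest alpha count was 8.91, 8.68 and 7.31 at E16, and 42.6 and 51.1 at P12. It was 26.8, 63.8 and 314 at P80, where the largest value is set by the 5 alpha reads of P80 replicate 3, and 63.1, 26.2, 47.5 and 78.4 at P310. Every later sample lay above the E16 samples.

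Pcdhgc3, a C-type gamma gene whose protein binds Axin1 and influences dendrite branching (ENSMUSG00000102918, 37806364 to 37841873), was the highest gamma gene by own reads at every age. Its count held 446, 357 and 330 CPM at E16, 343 and 314 CPM at P12, 217, 176 and 184 CPM at P80, and 179, 140, 194 and 153 CPM at P310. The P80 samples all lay below the E16 samples, with a log2 change of -0.98 ± 0.19 (adjusted p = 0.000983, edgeR). P12 overlapped E16, at a log2 change of -0.20 ± 0.22 (adjusted p = 0.535).

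On own reads, Pcdhgc3 held 153, 117 and 107 CPM at E16, 141 and 126 CPM at P12, 70.3, 50.02 and 74.8 CPM at P80, and 37.9, 33.1, 62.9 and 46.3 CPM at P310. Both P12 samples lay within the E16 range (log2 change 0.09 ± 0.28, adjusted p = 0.855). P80 was lower than E16 by -0.95 ± 0.26 (adjusted p = 0.0085) and lower than P12 by -1.04 ± 0.28, which missed the threshold (adjusted p = 0.106). P310 was lower than P80 by -0.53 ± 0.24 (adjusted p = 0.869). The antisense gene BC037039 overlaps Pcdhgc3 by 1559 bases and, counted without strand, its reads cannot be told apart from those of Pcdhgc3. BC037039 held 105.7, 78.4 and 65.15 CPM at E16, and 94.6 and 85.75 CPM at P12. At P80 it held 48.9, 27.8 and 39.2 CPM, and at P310 24.3, 29.0, 42.0 and 30.9 CPM. Its log2 change at P80 against E16 was -1.10 (adjusted p = 0.00472, edgeR). The part of BC037039 in the own reads and share of Pcdhgc3 was not tested.

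Pcdhgc3 made up 44.1, 38.8 and 39.4% of all gamma own reads at E16, 62.9 and 56.5% at P12, 28.2, 15.9 and 25.6% at P80, and 16.6, 14.8, 27.6 and 17.9% at P310. Its share was thus higher in both P12 samples than in any E16 sample, and lower in every adult sample than at either early age. The 12 gamma A genes together took the opposite course: 14.3 and 21.9% of own reads at P12, against 31.3, 32.8 and 36.0% at E16. Their share was 36.9 to 45.0% at P80 and 34.1 to 50.9% at P310. The gamma B genes (6 with an estimate) took 22.1 to 25.4% at E16, 21.04 and 16.4% at P12, 30.8 to 32.6% at P80 and 30.4 to 38.8% at P310. The shares add up to a fixed total, so a rise of one lowers another.

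**Figure D3:**
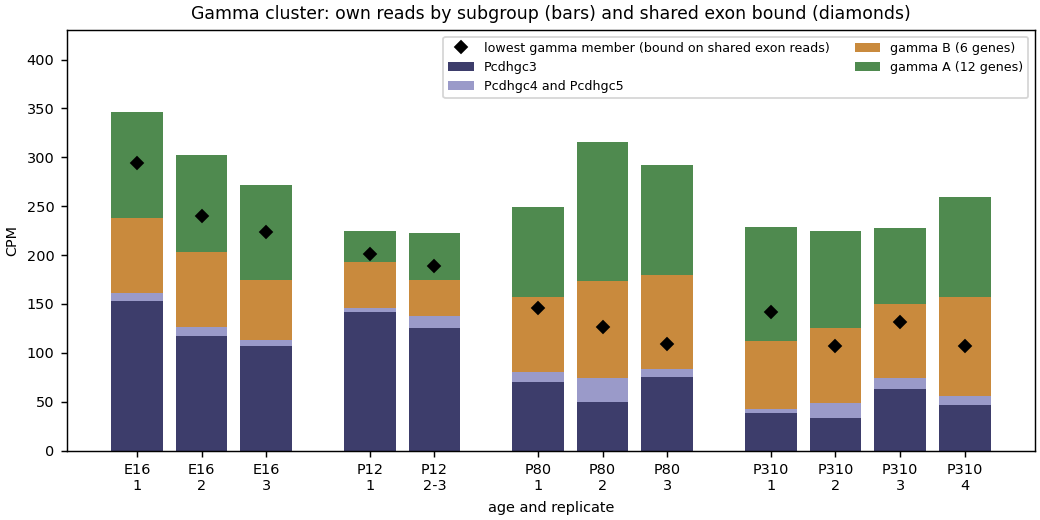
Own reads of gamma genes in CPM in each sample, stacked by subgroup (bars), and the lowest gamma gene (Pcdhgb8 left out) as the bound on shared exon reads (diamonds). Pcdhgc3 is the largest part of the bar in the E16 and P12 samples the diamonds sit nearer the top of the bar at E16 and P12 than at P80 and P310, and the P12 bars have the smallest gamma A parts.

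In CPM the gamma A own reads summed to 32.2 and 48.8 at P12, against 108, 99.1 and 97.7 at E16, and to 91.98, 142 and 113 at P80. Gamma B own reads summed to 47.3 and 36.6 CPM at P12, against 76.4, 76.6 and 61.0 CPM at E16, and to 76.8, 99.4 and 95.4 CPM at P80. Both P12 samples were the lowest of all 12 samples in both sums. At P12, 17 of 21 gamma genes were below 0 on own reads against E16. All 21 share the count subtracted in each sample, so such tallies and sums are not separate results per gene. Pcdhga7 (-2.26 ± 0.76, adjusted p = 0.0381), Pcdhga8 (-1.71 ± 0.52, adjusted p = 0.025) and Pcdhga11 (-2.16 ± 0.51, adjusted p = 0.00506) were called lower (edgeR). In the same fit, 2216 of 21169 genes were called lower. The antisense gene Gm26672, which overlaps Pcdhga11, was also called lower at P12 (-0.71, adjusted p = 0.0393, edgeR). It held 24.9 and 25.6 CPM at P12, against 44.4, 42.5 and 37.2 CPM at E16, and its part was not tested. At P80, 19 of the 21 gamma genes were above 0 against P12, and Pcdhga8 was called higher (2.63 ± 0.54, adjusted p = 0.0252). There, 87 of 21169 genes were called higher.

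Pcdhga8, a gamma A gene, held 5.40, 4.46 and 4.25 CPM of own reads at E16, 1.06 and 1.78 CPM at P12, 7.92, 10.6 and 8.28 CPM at P80, and 7.13, 5.28, 8.38 and 11.1 CPM at P310. The P12 samples were below all others. Pcdhga11 held 24.6, 22.4 and 22.2 CPM of own reads at E16, 4.60 and 5.70 CPM at P12, 15.5, 4.82 and 18.3 CPM at P80, and 6.07, 8.69, 6.24 and 6.97 CPM at P310, with the E16 samples above all others. Pcdhga5 was the gamma gene called higher at P80 than at E16 on own reads, with 7.16, 21.1 and 9.95 CPM at P80, against 1.01, 6.21 and 4.89 CPM at E16 (1.64 ± 0.61, adjusted p = 0.0428). In the same fit, 4535 of 21169 genes were called higher. In E16 replicate 1 Pcdhga5 was 14 reads above the lowest gamma gene, so its change rests in part on the subtraction. Pcdhga5, Pcdhga7 and Pcdhga8 are described because they were called on own reads, after their values were seen.

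The own reads of the whole gamma cluster overlapped between P80 and E16, while its lowest gene did not. Own reads summed to 346, 302 and 272 CPM at E16, 225 and 223 CPM at P12, 249, 316 and 293 CPM at P80, and 229, 224, 228 and 260 CPM at P310. Own reads per read of the lowest gene were 1.18, 1.26 and 1.22 at E16 and 1.12 and 1.18 at P12. They were 1.70, 2.504 and 2.68 at P80, and 1.62, 2.101, 1.73 and 2.43 at P310, above every E16 and P12 sample. On own reads, 11 of 21 gamma genes were above 0 and 10 below at P80 against E16, where whole counts put all 22 below.

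The other 2 gamma C-type genes were small next to Pcdhgc3. Pcdhgc4, required for the survival of interneurons in mice, held 2.22, 10.9 and 3.62 CPM of own reads at P80, against 8.78, 5.31 and 6.01 CPM at E16. Pcdhgc5 held 7.79, 13.1 and 5.29 CPM of own reads at P80, while at E16 it was the lowest gene in replicate 3 and within 2 reads of the lowest in replicate 1, so no fold of its own reads is given. On whole counts both were called lower at P80, Pcdhgc4 by -0.96 ± 0.20 (adjusted p = 0.00127) and Pcdhgc5 by -0.90 ± 0.19 (adjusted p = 0.0014).

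Among the gamma A and gamma B genes with the smallest adjusted p on whole counts, Pcdhga11 fell at P80 by -0.98 ± 0.19 (adjusted p = 0.00082) and Pcdhgb1 by -0.98 ± 0.19 (adjusted p = 0.000901), both against E16. Pcdhga4 fell by -0.96 ± 0.19, Pcdhgb6 by -0.88 ± 0.18, Pcdhgb7 by -0.87 ± 0.19 and Pcdhgb2 by -0.90 ± 0.18. On own reads Pcdhgb2 was at 0.83 (adjusted p = 0.0684), Pcdhgb7 at 0.15 (adjusted p = 0.739) and Pcdhgb6 at -0.03 (adjusted p = 0.951). Pcdhgb2 held 10.7, 10.4 and 12.3 CPM of own reads at P80, against 5.25, 5.31 and 8.20 CPM at E16, with no overlap.

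**Figure D4:**
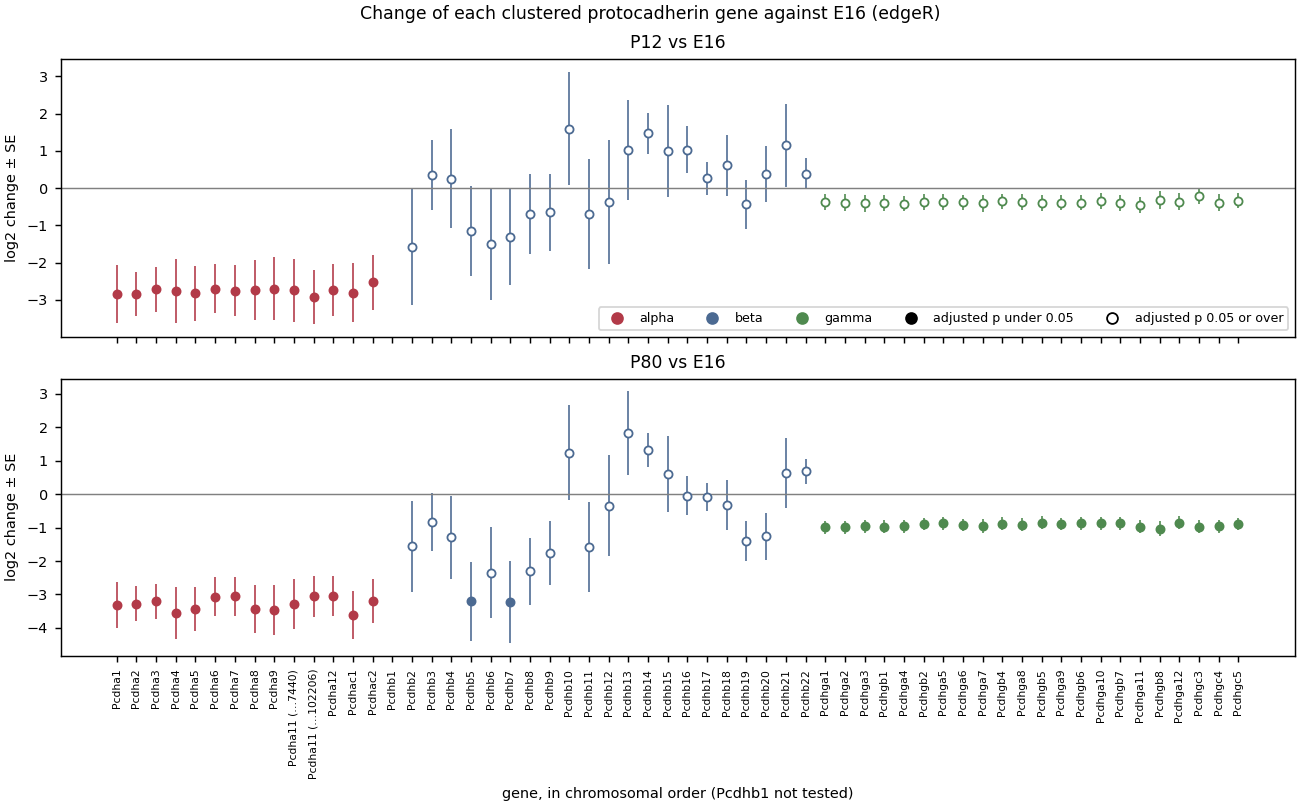
Log2 change with SE of each tested gene in chromosomal order, for P12 against E16 (top) and P80 against E16 (bottom), filled where the adjusted p was under 0.05 (edgeR). All 14 alpha genes are filled in both panels, gamma genes are filled at P80 only, and of the beta genes Pcdhb5 and Pcdhb7 are filled at P80.

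The beta genes differed from one another rather than moving as a block. Their summed level was 72.4, 56.9 and 50.8 CPM at E16, 61.6 and 78.3 CPM at P12, 52.3, 48.5 and 42.1 CPM at P80, and 67.4, 58.0, 65.6 and 59.4 CPM at P310. E16 overlapped P12 and P80. At P12 against E16 none of 21 was called (edgeR, 1 at an unadjusted p under 0.05, and 1 called with DESeq2), with 12 above 0 and 9 below and a median of 0.26. At P80, Pcdhb5 and Pcdhb7 were the 2 of 21 called lower than at E16, and 0 were called higher. Over all genes, 10.5% were called lower and 16.7% higher at P12, and 19.2% lower and 21.5% higher at P80. Of the 21 beta genes, 6 were above 0 and 15 below at P80, and the median was -0.84.

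Pcdhb5 (ENSMUSG00000063687, 37320381 to 37323915) held 3.67, 2.90 and 1.36 CPM at E16, 0.809 and 1.55 CPM at P12, 0.443, 0 and 0.348 CPM at P80, and 0.132, 1.21, 1.16 and 0.255 CPM at P310. Pcdhb7 (ENSMUSG00000045062, 37341702 to 37345202) held 4.32, 4.16 and 3.95 CPM at E16, 0.933 and 2.38 CPM at P12, 0.887, 0 and 0.348 CPM at P80, and 0, 1.76, 1.34 and 0.255 CPM at P310. Both were lower in every P80 sample than in any E16 sample, and Pcdhb7 was lower in every later sample. The log2 change at P80 against E16 was -3.20 ± 1.17 for Pcdhb5 (adjusted p = 0.0411) and -3.23 ± 1.23 for Pcdhb7 (adjusted p = 0.0486). Pcdhb5 kept this call in 12 of 21 alternative fits and Pcdhb7 in 11.

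Pcdhb14 went the other way. It held 4.89, 3.74 and 1.83 CPM at E16, 8.09 and 11.2 CPM at P12, 8.43, 11.1 and 6.68 CPM at P80, and 3.96, 4.18, 9.54 and 8.07 CPM at P310. The P12 and P80 samples lay above all E16 samples, and P310 overlapped both. Its log2 change was 1.47 ± 0.55 at P12 (adjusted p = 0.0625) and 1.32 ± 0.51 at P80 (adjusted p = 0.0517), both against E16 and short of the threshold, and it was called higher in 5 and in 9 of 21 alternative fits.

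**Figure D5:**
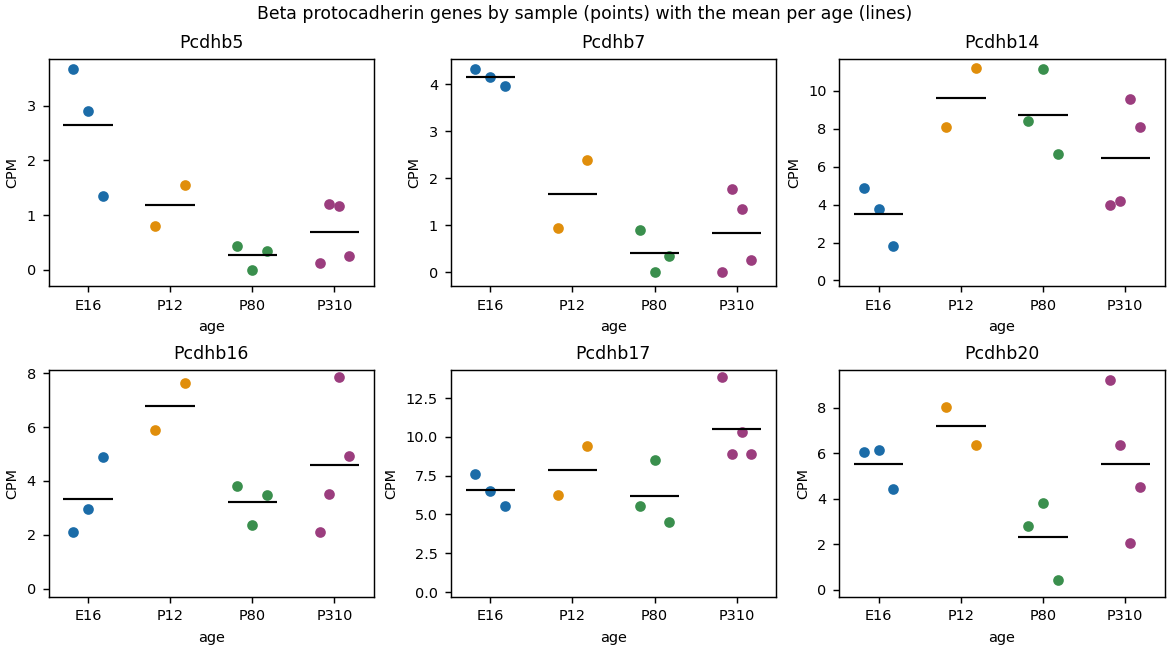
CPM of 6 beta genes in each sample (points) by age, with the mean per age (lines). Pcdhb5 and Pcdhb7 are lower in the P80 samples than at E16, Pcdhb14 is higher in the P12 and P80 samples than at E16, and Pcdhb16, Pcdhb17 and Pcdhb20 overlap between E16 and at least one later age.

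Per kilobase, where beta genes can be compared with one another, Pcdhb20 and Pcdhb17 were the highest at E16, with means of 1.56 and 1.41 CPM per kilobase. Pcdhb17 held 7.63, 6.52 and 5.54 CPM at E16, 6.28 and 9.44 CPM at P12, 5.58, 8.52 and 4.52 CPM at P80, and 13.9, 8.91, 10.3 and 8.93 CPM at P310. It was the beta gene in which all P310 samples lay above all P80 samples, and its log2 change between them was 0.76 ± 0.39 (adjusted p = 0.871). Pcdhb20 held 6.05, 6.15 and 4.42 CPM at E16, 8.02 and 6.38 CPM at P12, 2.79, 3.83 and 0.417 CPM at P80, and 9.24, 6.38, 2.05 and 4.505 CPM at P310. Its P80 samples lay below both earlier ages, without passing the test (-1.26 ± 0.70 against E16, adjusted p = 0.169). At P80 Pcdhb22, named after its values were seen, was the highest beta gene per kilobase. It held 9.88, 8.52 and 8.62 CPM at P80, against 5.83, 4.53 and 6.54 CPM at E16, with no overlap (0.68 ± 0.38, adjusted p = 0.166). Pcdhb16 held 5.91 and 7.66 CPM at P12, against 2.09, 2.96 and 4.89 CPM at E16 (1.03 ± 0.63, adjusted p = 0.253).

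Position in the cluster went with the direction of the difference. The first 8 beta genes tested, Pcdhb2 to Pcdhb9, were all below 0 at P80 against E16, with a median log2 change of -2.04, while of the 13 from Pcdhb10 to Pcdhb22 there were 6 above and 7 below, with a median of -0.04. Pcdhb2 to Pcdhb9 summed to 23.6, 19.0 and 14.6 CPM at E16, 9.83 and 12.6 CPM at P12, 6.21, 2.59 and 4.73 CPM at P80, and 8.97, 10.8, 11.0 and 10.4 CPM at P310. All later samples lay below E16, and all P310 samples lay above all P80 samples. Pcdhb10 to Pcdhb22 summed to 48.8, 37.9 and 36.2 CPM at E16, 51.8 and 65.7 CPM at P12, 46.1, 46.0 and 37.4 CPM at P80, and 58.5, 47.2, 54.4 and 49.0 CPM at P310. In this sum too, and in that of all 22 beta genes, all P310 samples lay above all P80 samples. The split into Pcdhb2 to Pcdhb9 and Pcdhb10 to Pcdhb22 was made after the values were seen and was not tested.

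Beta reads relative to the lowest gamma count were 0.246, 0.237 and 0.228 at E16, 0.306 and 0.415 at P12, 0.358, 0.385 and 0.386 at P80, and 0.476, 0.543, 0.4997 and 0.557 at P310. Every P12 and P80 sample lay above E16, and every P310 sample above P80. Many of the beta levels are near the limit of detection: 0 or 1 of the 22 genes had no count in each E16 and P12 sample, 1 to 7 at P80 and 1 to 8 at P310.

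From P12 on, no member passed the test on whole counts between successive ages. At P80 against P12, edgeR called 0 members higher or lower, with 23 at an unadjusted p under 0.05, all but 1 of them gamma genes, and the smallest adjusted p was 0.113. DESeq2 also called 0. Few genes were called there at all, 0.406% higher and 1.02% lower. The gamma median was -0.53. The gamma genes, whose values mostly repeat 1 measurement, were lower in each P80 sample than in either P12 sample. How many of all genes separate in this way was not counted. The alpha median was -0.52, with overlapping samples for all 14 genes, and the beta median was -0.89.

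At P310 against P80, 0 members were called by edgeR, 0 had an unadjusted p under 0.05, and DESeq2 called 0. The shares over all genes were 0% higher and 0% lower. The medians were 0.01 for alpha, 0.76 for beta and -0.08 for gamma. The lowest alpha gene averaged 2.61 ± 1.13 CPM at P310 (SD, n = 4) and 2.59 ± 2.61 CPM at P80 (n = 3), and the lowest gamma gene 122 ± 18 CPM at P310 and 127 ± 19 CPM at P80.

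RNA of several known regulators of the clusters was lower after E16. CTCF and the cohesin ring bring protocadherin promoters to distant enhancers, DNA methylation and SMCHD1 silence them, and REST binds a neuronal silencer there. Of 20 such regulators, 1 was called higher and 10 lower at P12 against E16 (median -0.72), and 1 higher and 11 lower at P80 (median -0.67), where over all genes 16.7% were called higher and 10.5% lower at P12, and 21.5% higher and 19.2% lower at P80. Ctcf itself held 61.6, 71.6 and 60.4 CPM at P80, against 144, 120 and 132 CPM at E16 (log2 change -1.03 ± 0.20, adjusted p = 0.000819). The cohesin subunit Smc3 changed by -1.23 (adjusted p = 0.000107) and the maintenance methyltransferase Dnmt1 by -1.45 (adjusted p = 0.000123) at P80. The transcription factor Lhx2 changed by -4.60 (adjusted p = 2.77e-06). Rest was the regulator that rose, to 91.9 and 73.8 CPM at P12, against 33.0, 26.4 and 28.4 CPM at E16 (log2 change 1.5, adjusted p = 0.000402). None of the 20 was called between P80 and P12 or between P310 and P80 (edgeR).

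Of 20 partners that signal for or process protocadherin proteins, 6 were called higher and 5 lower at P12, and 6 higher and 8 lower at P80, both against E16 and beside the same shares over all genes (16.7% and 10.5% at P12, 21.5% and 19.2% at P80). Ptk2b, one of the focal adhesion kinases that protocadherin tails inhibit, was higher at P80 (5.06, adjusted p = 2.2e-06), as was the receptor kinase Ret (4.72, adjusted p = 1.62e-05), while the neural cadherin Cdh2 was lower (-3.45, adjusted p = 3.09e-07). Cdh2 held 36.0, 47.8 and 37.1 CPM at P80, against 484, 421 and 411 CPM at E16. In the WAVE actin complex, which binds a motif in many protocadherin tails, Wasf1 was lower (-3.62, adjusted p = 0.00129) and Cyfip1 higher (1.11, adjusted p = 0.00106).

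Of 21 non-clustered protocadherins and giant cadherins, 2 were called higher and 5 lower at P12, and 3 higher and 11 lower at P80, both against E16. Over all genes, 16.7% were called higher and 10.5% lower at P12, and 21.5% higher and 19.2% lower at P80. Pcdh1 (2.62, adjusted p = 3.93e-07), Pcdh12 (2.55, adjusted p = 0.000557), a protocadherin of vascular endothelium, and Fat2 (2.23, adjusted p = 0.0421) were the 3 higher at P80. The planar polarity cadherins Celsr1 (-2.36, adjusted p = 9.41e-06) and Dchs1 (-2.80, adjusted p = 2.98e-06) were lower. Of 15 tested genes beside or between the clusters, 2 were called higher and 1 lower at P12, and 3 higher and 5 lower at P80, near the shares over all genes except for the lower calls at P80. Arap3, near the gamma cluster and expressed in endothelium, held 211, 278 and 278 CPM at P80, against 6.12, 8.32 and 4.42 CPM at E16. Diaph1, which adjoins the end of the gamma cluster, held 126, 104 and 118 CPM at P80, against 77.2, 69.9 and 56.2 CPM at E16 (0.77, adjusted p = 0.00637). Ctcf, Wasf1 and Cyfip1 were named after their values were seen. These lists were fixed with earlier results of these libraries known, and the endothelial sums given above differed between E16 and all later ages in the same comparisons, whose part was not tested.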

How the data were processed

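The authors deposited whole-number read counts for each gene. Per the file headers they came from featureCounts 1.5.0-p1, run over the exons of Ensembl release 92 (GRCm38). It credited a read to each gene it overlapped by at least 10 bases and to each place it mapped, whatever its strand, so members that overlap or resemble each other hold common reads. Trim Galore and TopHat2 2.1.1 are named in the submitters' processing notes.

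GENCODE M21 named 37715 of 37785 genes, and 70 kept their identifier. Of 2 genes with the symbol Pcdha11, 1 holds the RefSeq start of Pcdha10. P12 replicates 2 and 3 were summed. Genes kept by filterByExpr were scaled by TMM and fitted with a mean per age in edgeR 4.0.16 (R 4.3.3, robust quasi-likelihood), with Benjamini-Hochberg adjustment over 21170 genes and a threshold of 0.05. The common biological coefficient of variation was 0.513. Own reads were counts minus the lowest count of the cluster in that sample, without Pcdhgb8, whose annotated constant exon is truncated. In CPM they used the scaling of the whole counts. In the fit, library sizes and TMM factors were computed again with own reads in place, over 21169 genes. Alternatives were RLE scaling, other filters, DESeq2 1.42.0, a replicate block, counts without mitochondrial, ribosomal and haemoglobin genes, P12 replicates 2 and 3 apart, own reads, only the ages compared, and each sample left out. The procedure was tested on simulated data. Named genes were the C-type genes, the 2 members with the smallest adjusted p per subgroup and comparison, the 2 highest beta genes per length at E16 and over the later ages together, and up to 3 genes per further list, plus those named as chosen after their values were seen. Members and lists were chosen with earlier results of these data known.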

Additional observations from a re-analysis of the deposited data

Results flagged for a closer look

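Of 51 values examined at P310, the age with 4 samples, 1 had a sample far from the others. The summed own reads of the gamma cluster were 259.5 CPM in P310 replicate 4, against 224.3 to 228.8 CPM in the other 3 samples, a gap of 0.872 of the whole range and over Dixon's limit for 4 samples. Chance gives such a gap in about 1 in 20 groups.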

How the results depend on the processing

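At P12 against E16, the count of members called higher was 0 and became 1 (Pcdhb14) with DESeq2, with P12 replicates 2 and 3 apart and with only the ages compared, and ranged 0 to 1 with a sample left out. The count called lower was 14, all of them alpha genes. On own reads it was 3, the gamma genes Pcdhga7, Pcdhga8 and Pcdhga11, and none of the 13 alpha genes tested was called. Pcdha1, the lowest alpha gene in each E16 sample, was not tested on own reads. The count also moved with a sample left out, as given above for the alpha genes. At P80 against E16, the count called higher was 0 and became 1 with a filter of 1 CPM in 3 libraries, with DESeq2, without mitochondrial, ribosomal and haemoglobin genes, with P12 replicates 2 and 3 apart, with only the ages compared (Pcdhb14 in each) and on own reads (Pcdhga5), and ranged 0 to 1 with a sample left out. The count called lower was 38 and became 6 on own reads (Pcdhgb8 on its whole count and Pcdhac1 at a 0 set by the subtraction included) and 40 with DESeq2 (Pcdhb8 and Pcdhb19 added), and ranged 36 to 38 with a sample left out. At P80 against P12, 1 member was called higher on own reads and 1 lower with P12 replicates 2 and 3 apart, against 0. Over the 4 ages, 36 became 7 on own reads, and ranged 36 to 37 with a sample left out. No count changed at P310 against P80. The log2 changes of Pcdhgc5, Pcdhgb7 and Pcdhgb2 at P80 against E16 reversed on own reads, to 2.70, 0.15 and 0.83, where that of Pcdhgc5 rests on E16 values that the subtraction sets at or near 0. Own reads remove the shared exon reads by construction, and the cause of the other differences was not tested. Fitting only the ages compared moved the median of all genes by 0.121 at P12 against E16. Replicate numbers did not pair the samples (correlations -0.0936 to 0.208 over 15 pairs, with 5 of 12 samples closest to their own number), and the replicate block gave 14 lower calls at P12 and 36 at P80 against E16. Low read numbers limit the alpha genes after E16, most beta genes and all own reads.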
